A study of Homo sapiens with 4 samples.

Results

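The genes of the cytosolic ribosomal proteins were compared between MDA-231 cells that over-expressed TARBP2 and cells that carried a GFP plasmid. Members were chosen by symbol: RPL, RPS or RPLP and a number, with at most an ending of A, X, Y or L, together with RPSA and FAU. The rule gave 82 genes, 49 of the large subunit with its stalk and 33 of the small subunit, and it used no measured value. Through the deposited values 64 of the 82 could be tied to a probe on the arrays, out of 16548 genes so tied in all. Of these 64, RPL3L and RPL10L were not detected on any array, and 62 were tested. The other 18 members had no tied probe and were read only from the authors' deposited table of ratios.

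Transcripts were measured on 4 Illumina expression BeadChips with biotin-labelled total RNA. MDA-231, also written MDA-MB-231, is an established human breast cancer line. The TARBP2 group (n = 2 arrays) was transfected transiently with pCMV-TARBP2 and the GFP group (n = 2 arrays) with pCMV-GFP, both with the TransIT reagent, and both plasmids express their insert from the CMV promoter. RNA was extracted 48 hours after transfection, so both groups share the line, the reagent and the time. For the control the design text speaks of mock transfection and the labels of a GFP plasmid, which is the name used here. The labels do not say whether the arrays of a group came from separate cultures, so the spread behind each p-value is that of these samples and may be technical.

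Each ribosome holds a single copy of nearly all of its proteins, and the cell makes them in matched amounts from genes scattered over many chromosomes. Most of their mRNAs begin with a cytosine followed by a run of pyrimidines, the terminal oligopyrimidine or TOP motif, through which the mTOR pathway and the RNA-binding protein LARP1 control translation of the whole class together. TARBP2 is a double-stranded RNA-binding protein that partners DICER1 in making microRNAs. Ribosomal protein mRNAs are among the most abundant in dividing cells, including cancer lines.

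TARBP2 itself had log2 levels of 15.11 and 15.12 on the TARBP2 arrays, against 7.26 and 6.97 on the GFP arrays. Its log2 difference was 8.003 (SE 0.109, adjusted p = 3.72e-06). Here and below a log2 level is the background-corrected, quantile-normalised probe intensity on the log2 scale, a log2 difference is TARBP2 minus GFP, and adjusted p-values come from limma with Benjamini-Hochberg adjustment over the 10038 genes tested. Genes are said to have risen or fallen on the TARBP2 arrays only at an adjusted p under 0.05. Median non-normalised intensity was 75.5 and 74.5 on the TARBP2 arrays, against 78.5 and 78.7 on the GFP arrays, and 44.1 to 45.9% of probes were detected. All 10 tied markers of MDA-231 cells, VIM and CD44 among them, were detected (1 rose and 5 fell). The luminal genes ESR1, PGR, ERBB2 and TFF1 and the blood cell genes PTPRC, CD3E and HBB were not detected on any array. The other 6 of 10 tied luminal genes were detected and all passed the test. KRT19 fell by 1.25 on the log2 scale and XBP1 rose by 0.50, each detected on 4 arrays. GATA3 rose and was detected on the TARBP2 arrays alone, and FOXA1, CDH1 and KRT18 fell and were detected on the GFP arrays alone. These genes entered the test only through the group where they were higher, so their passing was partly set by the detection filter. GATA3, CDH1 and KRT18 lay near the floor, at percentiles 1.66, 0.77 and 0.70 of the tested genes by level. CD14 rose, by 1.96 on the log2 scale.

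The start sites show the motif that most of these genes share. The letters searched were a C at the annotated transcription start followed by at least 4 bases that are each C or T, on the gene's own strand, in RefSeq promoters of GRCh38.p14. The run was present for 47 of the 65 members with a promoter entry (72.3%), against 1404 of all 27305 genes with an entry (5.14%). The windows below are given for members whose levels are described in the next paragraphs, 15 bases on each side of the border between upstream and transcribed sequence, with capitals for the run of C and T that spans the annotated start. The first 6 lines hold the run. RPS4X and RPS15 do not hold it at this start.
RPL14 (chr3:40457324-40457353, plus strand): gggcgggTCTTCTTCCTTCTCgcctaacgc
RPLP0 (chr12:120201097-120201126, minus strand): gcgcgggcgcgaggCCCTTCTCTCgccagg
RPL28 (chr19:55385917-55385946, plus strand): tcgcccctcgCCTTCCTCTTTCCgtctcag
RPL13A (chr19:49487593-49487622, plus strand): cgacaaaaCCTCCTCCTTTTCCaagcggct
RPL34 (chr4:108620561-108620590, plus strand): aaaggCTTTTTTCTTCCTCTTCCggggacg
FAU (chr11:65122120-65122149, minus strand): cgccctcgCTTCTTCCTCTTTCTCgactcc
RPS4X (chrX:72277234-72277263, minus strand): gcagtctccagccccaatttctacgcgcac
RPS15 (chr19:1438381-1438410, plus strand): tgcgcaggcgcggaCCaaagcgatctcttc

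As a class the ribosomal protein genes moved little and in both directions. Of the 62 tested, 14 rose, 7 fell and 41 did not pass, so that 33.9% were called, against 55.6% of all genes tested, of which 28.1% rose and 27.5% fell. Without a detection filter these shares lay closer together, with 17 of 64 members called and 31.1% of 16548 genes. Their median log2 difference was 0.05, and -0.0019 over all genes. The 10th to 90th percentile of the members ran from -0.23 to 0.35, whereas that of all genes ran from -0.60 to 0.65. No member differed by 2-fold or more, against 8.7% of all genes. The median absolute log2 difference was 0.141 among members and 0.304 among all genes. In these bulk samples of a cell line, a change in some cells and a smaller change in all cells cannot be told apart.

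**Figure D1:**
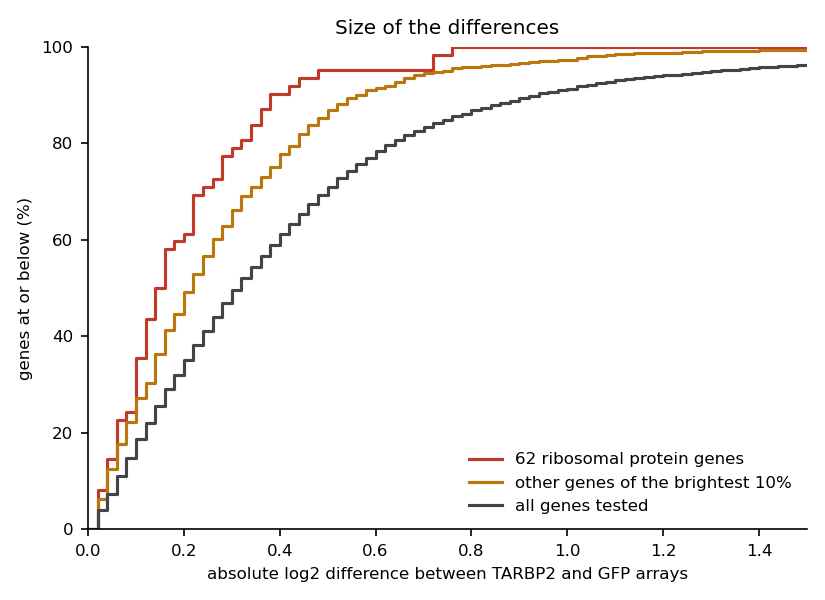
Share of genes in percent whose absolute log2 difference between TARBP2 and GFP arrays is at or below the value on the horizontal axis, for the 62 ribosomal protein genes, the 952 other genes of the brightest 10% and all 10038 genes tested. The curve of the ribosomal protein genes lies to the left, with a median of 0.141, against 0.206 for the other bright genes and 0.304 for all genes.

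Most member probes were very bright, and bright probes moved less in general. Of the 62, 52 lay in the brightest 10% of tested genes and 32 were among the 101 genes at or above the 99th percentile. Some pair ties were searched only among bright probes, so the brightness of any member tied that way was partly set by the search. Brightness depends on the probe as well as on the transcript, and it is used here only to say where on the scanner's range the members were read. Non-normalised member intensities ran up to 37312.2 units, and whether signal at the top of the range was compressed was not tested. Among the 952 other genes of the brightest 10%, 45.8% were called and the median absolute log2 difference was 0.206. The array medians over the 62 members were 13.98 and 14.01 on the TARBP2 arrays, against 13.86 and 13.95 on the GFP arrays. The medians of both TARBP2 arrays therefore lay above those of both GFP arrays, a shift that was not tested. The TARBP2 and GFP values did not overlap for 45 of 62 members (72.6%), against 78.4% of all genes.

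**Figure D2:**
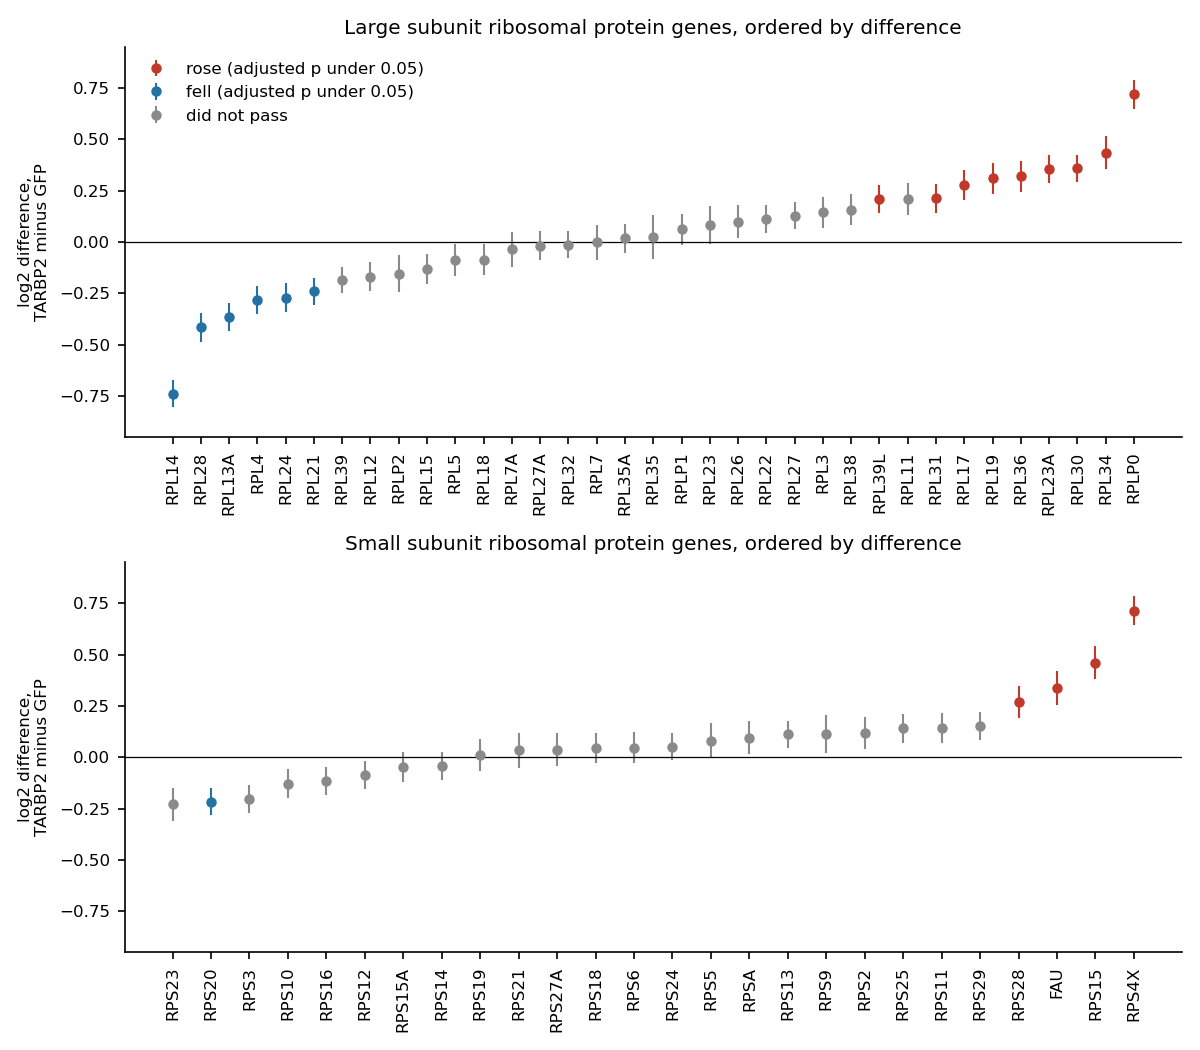
Log2 difference, TARBP2 minus GFP, of the large subunit genes (upper panel) and of the small subunit genes reported here (lower panel), ordered by size. Points are estimates from 2 arrays per group, bars are standard errors of the fit, and colours mark genes that rose, fell or did not pass. Only RPL14, RPS4X and RPLP0 were called with a difference of 1.5-fold or more.

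Of 35 large subunit genes tested, 9 rose and 6 fell (42.9%), with a median log2 difference of 0.02. Of 27 small subunit genes, 5 rose and 1 fell (22.2%), with a median of 0.05. The difference between the subunits was not tested. Only 3 called members differed by 1.5-fold or more, and they are described first.

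RPL14, a large subunit protein, fell. Its log2 levels were 12.20 and 12.20 on the TARBP2 arrays, against 12.96 and 12.92 on the GFP arrays. The log2 difference was -0.74 (SE 0.067, adjusted p = 0.000741), or 1.67-fold lower. The groups did not overlap, and the TARBP2 arrays were nearly equal. A dimmer probe tied to the same accession did not follow: it read 12.38 and 12.38 on the TARBP2 arrays, against 12.08 and 12.20 on the GFP arrays. Its log2 difference was 0.24 (adjusted p = 0.0721 over all detected probes). The mean of both RPL14 probes had a log2 difference of -0.25 (adjusted p = 0.0235). The size of this fall thus rested on the choice of probe, and the dimmer probe had the opposite sign.

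RPS4X encodes a small subunit protein from the X chromosome and is known for escaping X inactivation. Its log2 levels were 13.13 and 13.19 on the TARBP2 arrays, against 12.41 and 12.48 on the GFP arrays, without overlap. The gene rose by 0.71 (SE 0.071, adjusted p = 0.00104), or 1.64-fold. Its other probe, which was higher on the TARBP2 arrays without passing, had a log2 difference of 0.22 (adjusted p = 0.096 over all detected probes), and the mean of both was 0.47 (adjusted p = 0.00435). The 50 genes around RPS4X had a median log2 difference of 0.26.

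The stalk of the large subunit recruits the elongation factors and consists of RPLP0, which anchors it, and the acidic proteins RPLP1 and RPLP2. RPLP0 rose, with log2 levels of 11.41 and 11.47 on the TARBP2 arrays, against 10.76 and 10.68 on the GFP arrays. The log2 difference was 0.72 (SE 0.073, adjusted p = 0.00108), or 1.65-fold, the highest of any member, and the groups lay well apart. RPLP0 is widely used as a loading reference in quantitative PCR. Another RPLP0 accession had no tied probe, and in the authors' deposited table it has a log ratio of 0.224, against 0.682 for the accession tested here. RPLP1 read 14.76 and 14.85 on the TARBP2 arrays, against 14.79 and 14.70 on the GFP arrays, and these ranges overlap (log2 difference 0.06, adjusted p = 0.529). RPLP2 read 14.86 and 15.05 on the TARBP2 arrays, against 15.06 and 15.16 on the GFP arrays (log2 difference -0.15, adjusted p = 0.202). Other RPLP1 probes had log2 differences of 0.20 and 0.26, and the mean of all its probes was 0.17 (adjusted p = 0.0795). For the probes tested the 95% intervals were -0.13 to 0.25 for RPLP1 and -0.38 to 0.07 for RPLP2, and both end below the RPLP0 interval of 0.54 to 0.90.

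**Figure D3:**
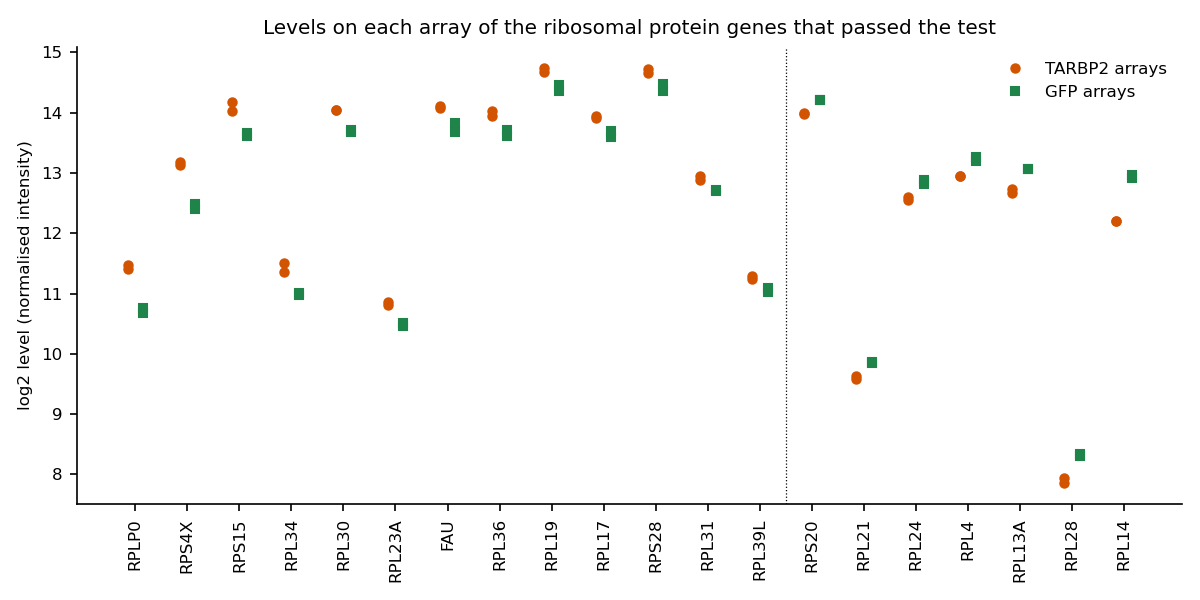
Log2 level on each array of the ribosomal protein genes that passed the test and are reported here, TARBP2 arrays (circles) to the left of GFP arrays (squares), ordered by log2 difference. To the left of the dotted line are genes that rose and to the right the 7 that fell, and in each gene shown the arrays of the groups do not overlap.

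Among the other large subunit genes, RPL34 rose by 0.44 (SE 0.082, adjusted p = 0.00768). Its log2 levels were 11.36 and 11.51 on the TARBP2 arrays, against 10.98 and 11.01 on the GFP arrays. RPL34 was also higher on its other probe, which rose by 0.64 over all detected probes (adjusted p = 0.00521). RPL30, a protein that in budding yeast binds its own transcript, had log2 levels of 14.05 and 14.05 on the TARBP2 arrays, against 13.71 and 13.67 on the GFP arrays. It rose by 0.36 (SE 0.066, adjusted p = 0.00729). RPL23A sits at the exit of the tunnel through which the new chain leaves, where the signal recognition particle docks. It read 10.82 and 10.86 on the TARBP2 arrays, against 10.51 and 10.46 on the GFP arrays, and rose by 0.35 (SE 0.068, adjusted p = 0.0083). In each of these 3 genes both TARBP2 arrays lay above both GFP arrays.

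RPL36 read 14.02 and 13.94 on the TARBP2 arrays, against 13.61 and 13.71 on the GFP arrays, and rose by 0.32 (adjusted p = 0.0173). Its second, dim probe rose as well, by 0.54 (adjusted p = 0.00716 over all detected probes). RPL19, which takes part in a bridge to the small subunit, read 14.75 and 14.68 on the TARBP2 arrays, against 14.45 and 14.35 on the GFP arrays (log2 difference 0.31, adjusted p = 0.0182). RPL17, another protein of the exit tunnel, read 13.95 and 13.91 on the TARBP2 arrays, against 13.60 and 13.70 on the GFP arrays. It rose by 0.28 (adjusted p = 0.0244). RPL31 rose by 0.21 (adjusted p = 0.0467) and so did RPL39L, a relative of RPL39 that is abundant in testis (log2 difference 0.21, adjusted p = 0.0491). These last rises were the smallest that passed, at 1.16-fold. Over all detected probes neither the RPL31 probe (adjusted p = 0.083) nor this RPL39L probe (adjusted p = 0.0864) passed. The other RPL39L probe had a log2 difference of 0.10 (adjusted p = 0.405 over all detected probes). The mean of both RPL39L probes was 0.15 (adjusted p = 0.103) and did not pass.

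The large subunit genes that fell, RPL14 aside, did so by little. RPL28 read 7.94 and 7.86 on the TARBP2 arrays, against 8.33 and 8.30 on the GFP arrays. It fell by 0.42 on the log2 scale (SE 0.071, adjusted p = 0.00564), and it is one of the 2 members whose probes lay in the dimmer part of the tested genes. RPL13A, which is known for leaving the ribosome after interferon-gamma to silence inflammatory transcripts, read 12.74 and 12.67 on the TARBP2 arrays, against 13.07 and 13.07 on the GFP arrays. It fell by 0.37 (SE 0.069, adjusted p = 0.00787). RPL4, which reaches into the exit tunnel, read 12.95 and 12.96 on the TARBP2 arrays, against 13.26 and 13.20 on the GFP arrays. It fell by 0.28 (adjusted p = 0.0182). RPL24, a protein of a bridge between the subunits, fell by 0.27 (adjusted p = 0.0246), and RPL21 fell by 0.24 (adjusted p = 0.0292). In all of these the TARBP2 arrays lay below the GFP arrays without overlap. Over all detected probes the RPL21 probe did not pass (adjusted p = 0.0568).

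In the small subunit, RPS15 lies close to the decoding site. It read 14.03 and 14.18 on the TARBP2 arrays, against 13.67 and 13.61 on the GFP arrays, and rose by 0.46 (SE 0.081, adjusted p = 0.00623). Its dim second probe, with a log2 difference of 0.18, did not pass (adjusted p = 0.231 over all detected probes). FAU encodes a ubiquitin-like protein fused to a small subunit protein. Its log2 levels were 14.11 and 14.08 on the TARBP2 arrays, against 13.83 and 13.68 on the GFP arrays, and it rose by 0.34 (SE 0.082, adjusted p = 0.0186). RPS28 rose by 0.27 (adjusted p = 0.0303), with 14.72 and 14.66 on the TARBP2 arrays, against 14.37 and 14.48 on the GFP arrays. RPS20 was the 1 small subunit gene that fell. It read 13.998 and 13.977 on the TARBP2 arrays, against 14.203 on both GFP arrays, and fell by 0.22 (adjusted p = 0.0381). Over all detected probes neither the RPS28 probe (adjusted p = 0.0571) nor the RPS20 probe (adjusted p = 0.0709) passed.

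The test did not pass for 41 members. Every 95% interval of these 41 lay within -0.43 to 0.41 on the log2 scale, or 0.741-fold to 1.33-fold, and 37 of the 41 intervals held 0. Just outside the threshold lay RPS3, at the entry of the mRNA channel (log2 difference -0.20, adjusted p = 0.0528), and RPS23, of the decoding centre (-0.23, adjusted p = 0.0585). RPL39 had -0.19 (adjusted p = 0.0591) and RPL11, which with RPL5 can bind the p53 regulator MDM2, had 0.21 (adjusted p = 0.0674). Next in order of p came RPL12 (log2 difference -0.17), RPS29 (0.15), RPL38 (0.16) and RPS25 (0.14), with adjusted p-values between 0.0935 and 0.143. Both directions are thus present on either side of the threshold. RPS19, the gene most often mutated in Diamond-Blackfan anaemia, read 15.07 and 15.01 on the TARBP2 arrays, against 14.97 and 15.09 on the GFP arrays. Its TARBP2 values lay between its GFP values (log2 difference 0.01, adjusted p = 0.912). RPL18 read 15.09 and 14.97 on the TARBP2 arrays, against 15.10 and 15.13 on the GFP arrays (log2 difference -0.09, adjusted p = 0.369).

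The counts of called members were lower in every fit that left out an array. Such fits also rest on fewer arrays, so a lost call does not single out the array left out. Without TARBP2 replicate 1, 7 members rose and 3 fell, and without TARBP2 replicate 2, 8 rose and 3 fell. Without GFP replicate 1 these counts were 9 and 3, and without GFP replicate 2 they were 10 and 4. Over all genes the share called fell in the same fits, to 42.8, 42.9, 45.7 and 45.7% in that order. The calls of 10 members passed whichever array was left out. They include RPS4X, RPLP0, RPS15, RPL30, RPL34 and RPL23A, which rose, and RPL14, RPL28 and RPL13A, which fell. The other 11 called members lost the call without at least 1 array.

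The start site motif was read against these differences. Of the 39 tested members with the pyrimidine run at an annotated start, 5 rose and 5 fell, with a median log2 difference of 0.02. Of the 11 tested members with a promoter entry and no run, 5 rose and 1 fell, with a median of 0.15. Across all genes, 592 tested genes held the run and 52.9% of them were called, with a median of 0.04. Members with the run shown above thus include genes that fell (RPL14, RPL28 and RPL13A) and genes that rose (RPLP0, RPL34 and FAU). A missing run says only that these letters are not at this annotated start.

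Several probes allowed a check within a gene. For 19 members between 2 and 4 probes were kept, 43 probes in all. In 16 of the 19 every probe of the gene had the same sign, and in 3 the signs were mixed. No member had probes called in opposite directions over all detected probes, where 15 member probes rose and 5 fell of 86, against 40.3% of all 22123 probes called. The range between probes of a gene had a median of 0.109 on the log2 scale and was under 0.2 for 12 of the 19. RPL34 and RPL36 had every probe called. The widest range was that of RPS29, whose dimmest probe read 7.57 and 7.70 on the TARBP2 arrays, against 6.64 and 6.43 on the GFP arrays (log2 difference 1.10, adjusted p = 0.0028 over all detected probes). The other 3 RPS29 probes had log2 differences of -0.03, 0.01 and 0.15, none of which passed.

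**Figure D4:**
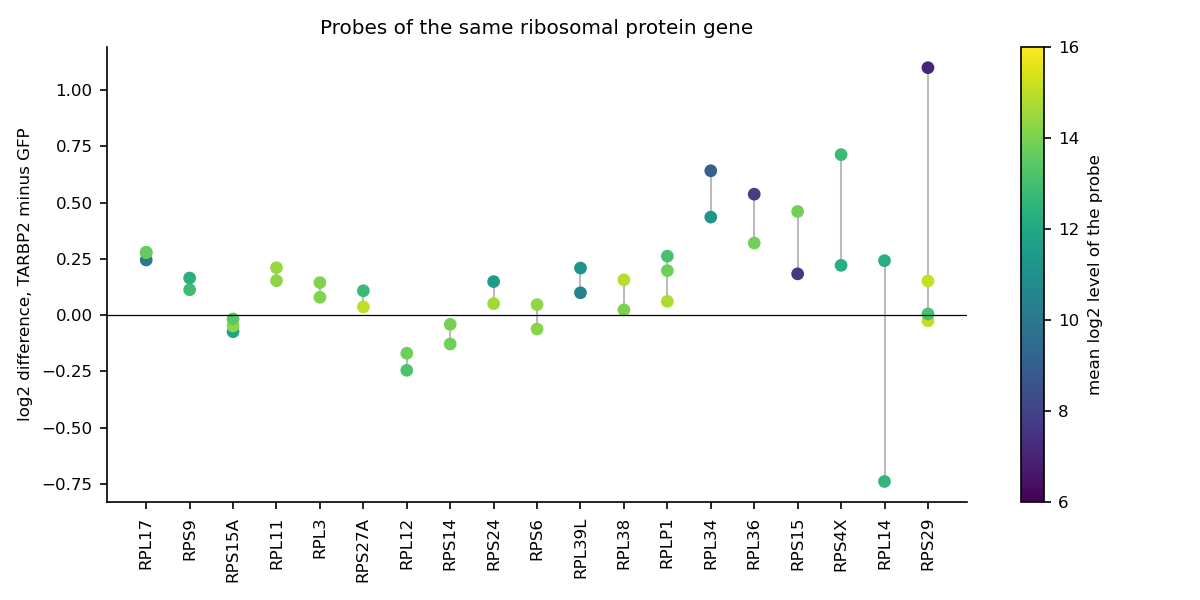
Log2 difference, TARBP2 minus GFP, of every kept probe of the 19 ribosomal protein genes with more than 1 probe, ordered by the range within a gene. Each point is a probe coloured by its mean log2 level, and grey lines join probes of a gene. Most genes span less than 0.2, while RPL14 spans 0.98 and RPS29 spans 1.13 through a dim probe at 1.10.

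Ribosomal protein genes lie among unrelated genes, so each was set beside its chromosomal neighbours. For each member the window was the 50 tested genes around it in order along its chromosome, equally many on each side except near chromosome ends. The median log2 difference of these 50 was taken, without the member. Over the 62 members, the difference of the gene and that of its window had a Pearson r of 0.487 and a Spearman rho of 0.491, and r was 0.238 over 10029 genes. These are correlations across genes of the same 4 arrays, windows of neighbouring members share genes, and genes are not independent replicates. Member windows ran from -0.36 around RPL39 to 0.34 around RPL34. Of the 14 members that rose, 12 lay in windows with a median above 0 (the exceptions were RPLP0 and RPL39L), and all 7 members that fell lay in windows with a median below 0. The median window was 0.16 for members that rose, -0.09 for those that fell and -0.07 for those that did not pass. Windows below 0 were therefore not particular to the members that fell. Over all 62 members, 43 differed in the same direction as their window. The part of these regional shifts in the members' differences was not tested.

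With the median of the window taken off every gene, 11 members rose and 6 fell, against 49.9% of all genes called. Of the 21 calls, 11 were kept. RPLP0 stayed at 0.75 (adjusted p = 0.00101) and RPL14 at -0.71 (adjusted p = 0.000901), each in a window near 0. RPS4X was at 0.45 (adjusted p = 0.00496). RPL34, with a window of 0.34, was at 0.10 (adjusted p = 0.359), and RPL30 was at 0.17 (adjusted p = 0.0898). FAU (0.10, adjusted p = 0.354), RPL17 (0.10, adjusted p = 0.311) and RPS28 (0.02, adjusted p = 0.881) also lost their calls. RPL39L, in a window of -0.22, was at 0.43 (adjusted p = 0.00521).

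**Figure D5:**
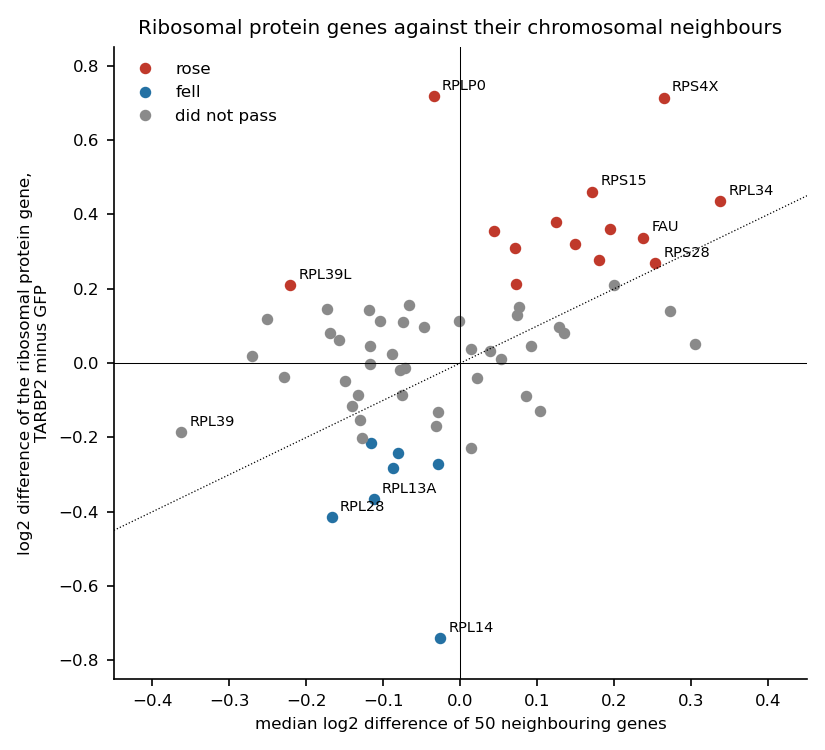
Log2 difference of each of the 62 ribosomal protein genes (vertical axis, TARBP2 minus GFP) against the median log2 difference of its 50 neighbouring genes (horizontal axis), with the dotted line at equality. Genes that rose lie mostly to the right and all 7 that fell to the left of 0, as do most that did not pass. RPLP0 and RPL14 lie far from the line with windows of -0.03.

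For the 18 members without a tied probe, the authors' deposited table gives ratios with no error. Of the 18, the authors' deposited table gives 10 a log ratio of TARBP2 over GFP above 0 and 8 a log ratio below 0. In the authors' deposited table they range from -0.14 for RPL37A to 0.23 for RPS3A, with a median of 0.05, and none carries the authors' class of down-regulated. Over all 93 member accessions the authors' deposited table has a median log ratio of 0.08 and a range from -0.38 to 0.68. The authors' deposited table marks 9 of the 93 as down (9.68%), against 12% of all accessions with a symbol. These are accessions of RPL4, RPL12, RPL13A, RPL14, RPL21, RPL24, RPL28, RPS20 and RPS23. All 7 members that fell here are among them, which is no independent check because that table was made from the same arrays.

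Relatives that the symbol rule leaves out were read beside their namesakes. RPL22L1, a paralogue of RPL22 that can replace it in the ribosome, fell. Its log2 levels were 7.77 and 7.76 on the TARBP2 arrays, against 8.88 and 8.70 on the GFP arrays, and the log2 difference was -1.02 (SE 0.085, adjusted p = 0.000563). RPL22 itself read 11.98 and 11.91 on the TARBP2 arrays, against 11.82 and 11.84 on the GFP arrays, and did not pass (log2 difference 0.11, adjusted p = 0.218). RPL7L1 (log2 difference -0.26, adjusted p = 0.0519) and RPL36AL (-0.18, adjusted p = 0.0752) did not pass. The fall of RPL22L1 was therefore larger than that of any member tested, although the difference between RPL22L1 and the members was not tested itself.

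Other genes of translation were read from 6 lists. Of the 102 distinct genes tested in these lists and among the relatives, 38 were called. In the list of translation factors, 3 of 23 genes tested rose and 4 fell (median log2 difference -0.02). EIF2S3, a subunit of the factor that brings the initiator tRNA, rose by 0.92 (SE 0.068, adjusted p = 0.000385), and EEF2, the factor that moves the ribosome along the mRNA, rose by 0.71. EIF4G1, the scaffold of the cap-binding complex, fell by 0.79, and PABPC1, the poly(A)-binding protein, fell by 0.41. Among genes of ribosome assembly, 2 of 29 rose and 9 fell, with a median log2 difference of -0.15. UTP14A, of the small subunit processome, fell by 0.80 (SE 0.071, adjusted p = 0.000699). TSR1, which matures the small subunit, and EIF6, which keeps the subunits apart, each fell by 0.56.

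Of 10 genes of RNA polymerase I and its factors, 1 rose and 2 fell. POLR1C rose by 0.48, while TAF1B and TAF1C each fell by 0.28. In the list for control of TOP mRNAs, 4 of 14 rose and 5 fell (median -0.03). TSC2, a brake on mTOR, fell by 0.81 (SE 0.069, adjusted p = 0.000613), and CNBP, which binds TOP mRNAs, fell by 0.60. MYC, a transcription factor that drives ribosome genes, rose by 0.52, and RPS6KB2, a kinase of ribosomal protein S6, rose by 0.57. Among hosts of small nucleolar RNAs, 2 of 11 rose and 1 fell, with SNHG8 at 0.54 and SNHG15 at -0.60. Of 15 genes of ribosome quality control and stress, 2 rose and 3 fell. They include ABCE1, which recycles ribosomes and rose by 0.37, and PELO, which rescues stalled ribosomes and fell by 0.28. EEF2 stands in the lists of translation factors and of hosts. In each of the 6 lists the share called was below the 55.6% of all genes, except the list for TOP mRNAs, with 9 of 14.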

How the data were processed

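RNA of 2 TARBP2 and 2 GFP samples was measured on 1 array each, with groups and replicate numbers taken from the sample labels. The authors deposited non-normalised intensities of 47323 probes with a detection p-value per probe, and a table of quantile-normalised intensities. The submitters' processing notes name lumi without a version. The authors' deposited final table holds a log ratio of TARBP2 over GFP, taken here as a log2 value, for 39747 accessions, and a class. Its log base is not stated.

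No table used here pairs probes with accessions, so they were paired by value. The deposited log ratio equals a difference of group means of 1 scaled inverse hyperbolic sine of the quantile-normalised intensities. Agreement within 1e-09 with a single probe tied 33113 accessions (83.3%), where shifted tables gave 11.8. Agreement within 7e-10 with the mean of a pair of probes tied 1329 more, where shifted tables gave 55.0, and 5305 stayed without a tie. Of the 1329, 165 were found only in a second search, limited to detected probes of the brightest 10% on the array. Of the 62 tested members, 48 rest on single ties (10 rose, 6 fell) and 14 on pairs, which are less certain (4 rose, 1 fell). RPL14, RPS4X, RPS15, RPL17 and RPL39L are the called members on pairs. Symbols came from RefSeq (GRCh38.p14) and were found for 22411 accessions. Probe sequences were not used, so a probe that also reads a pseudogene or a relative was not detected.

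Intensities were background-corrected by normexp from the detection p-values with an offset of 16, quantile normalised and taken to log2 (neqc, limma 3.58.1, R 4.3.3). A detection p under 0.05 on 2 or more arrays was required, which kept 22123 probes, and the brightest kept probe stood for each of 10038 genes. The limma test (lmFit and eBayes, 2-sided, 2 residual and 3.33 prior degrees of freedom) had no covariates and used Benjamini-Hochberg adjustment over all genes. Errors are its standard errors (2 arrays a group), and the number of arrays limits the precision. The ties and the fit were tested on simulated data.

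Named genes are TARBP2, the called members, the 8 further members of smallest p, the 4 of highest mean level, the stalk genes, relatives with their namesakes, and in each companion list the 4 or fewer with smallest p. Some genes that this rule names are not reported here. Members, lists and this rule were chosen with earlier results of these data known. Same-numbered arrays of the groups deviated with a correlation of 0.006, so no deviation shared by replicate number was seen. The labels do not say whether same-numbered samples were handled as pairs, and the correlation cannot decide it. Alternatives changed the normalisation, background correction, detection filter, choice of probes and ties, arrays, replicate block and window medians. A variance trend and a crossed replicate block were added after seeing the data.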

Additional observations from a re-analysis of the deposited data

How the results depend on the processing

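With 2 arrays per group, many calls were lost in fits that left out an array. A lost call there can come from the smaller number of arrays or from the array left out, and these were not told apart. An array left alone was assumed to vary like those of the other group. Leaving out each array in turn gave 10 to 14 ribosomal protein genes changed (main count 21), 7 to 10 that rose (main 14), 3 to 4 that fell (main 7) and 6 to 8 member probes changed (main 20), while the share of all genes changed was 42.8 to 45.7% (main 55.6%). Only accessions tied to 1 probe left fewer members, and gave 9 of 51 genes that rose (main 14 of 62), 13 of 56 probes changed (main 20 of 86), 50.6% of all genes changed, and 24 changed genes of the companion lists (main 38). The count of changed probes was 34 with the authors' quantile-normalised intensities, 32 without background correction, 31 with detection p under 0.01 on all 4 arrays and 13 without a detection filter, where 17 of 64 members and 31.1% of all genes changed. The replicate block gave 11 genes that rose, 6 that fell and 13 probes changed, although the labels do not say that the numbers pair the samples. It called 5380 of all genes and the crossed block 5482, against 5579 without a block. A variance trend with level, chosen after seeing the data, gave 20 genes that rose, 11 that fell and 39 probes changed. No called member changed sign under any of these alternatives, but none of them read the dimmer RPL14 probe alone. Of the 21 called members, 8 passed in all 13 alternatives (variance trend and crossed block aside) that tested them. Among the members named by rule, signs turned only in some that did not pass. RPS19 was at -0.017 with median scaling, -0.021 without TARBP2 replicate 1, -0.052 without GFP replicate 1 (its range over the arrays left out ran from -0.052 to 0.0755) and -0.042 with window medians removed. With window medians removed 15 of the 62 members turned sign, none of them called, and among the named ones RPL39 was at 0.18, RPS25 at -0.13 and RPL18 at 0.046. The causes were not tested. The median log2 difference of the members lay between 0.02 and 0.08 in all alternatives.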
